A study of Mus musculus with 12 samples.

Results

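The prostaglandin E2 (PGE2) pathway was examined in mouse hippocampus through 10 genes chosen by name: the cyclooxygenase genes Ptgs1 and Ptgs2, the PGE synthase genes Ptges, Ptges2 and Ptges3, the EP receptor genes Ptger1, Ptger2, Ptger3 and Ptger4, and the prostaglandin dehydrogenase gene Hpgd. All 10 were found among the 23382 rows of the deposited gene table, each as 1 row. The study compared 4 groups of 3 libraries of hippocampal RNA from mice on a C57BL/6 background. These were DISC1 mutant mice (line aDN-DISC1) given THC, DISC1 mutant mice given vehicle, control mice given THC and control mice given vehicle. THC is delta-9-tetrahydrocannabinol, the main psychoactive compound of cannabis. The study's title sets exposure in adolescence beside a genetic vulnerability of astrocytes and names NF-kB and COX-2, the product of Ptgs2. The labels give no age, sex, dose, time of sampling or driver of the mutant DISC1. Control libraries carry no genotype entry and were assigned by title, and the mutant allele was not checked in the counts.

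Cyclooxygenases turn arachidonic acid into PGH2, terminal synthases turn PGH2 into PGE2, and PGE2 acts on the EP receptors until prostaglandin dehydrogenase inactivates it. COX-1 is largely constitutive, while COX-2 is induced by cytokines and synaptic activity and is present at rest in excitatory neurons of the forebrain. In brain, much arachidonic acid comes from hydrolysis of the endocannabinoid 2-arachidonoylglycerol by monoacylglycerol lipase.

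The promoter windows of Ptgs2, Ptges and Hpgd are shown because Ptgs2 is the gene named in the study's title and the other 2 had the smallest p-values of the 10 genes for THC in mutants. Each window holds 300 bases around the annotated start, from RefSeq on GRCm38.p6, and 9 of the 10 genes matched an entry. Ptgs2 lies on the plus strand of chr1:150099781-150100080, Ptges on the minus strand of chr2:30903248-30903547 and Hpgd on the plus strand of chr8:56294302-56294601. The Ptges window lies inside the span listed for that gene below. Capitals mark matches, on either strand, to the GC box (GGGCGG), the core of the cyclic AMP response element (TGACG), the E-box (CACGTG) and the TATA box (TATAAA).
Ptgs2: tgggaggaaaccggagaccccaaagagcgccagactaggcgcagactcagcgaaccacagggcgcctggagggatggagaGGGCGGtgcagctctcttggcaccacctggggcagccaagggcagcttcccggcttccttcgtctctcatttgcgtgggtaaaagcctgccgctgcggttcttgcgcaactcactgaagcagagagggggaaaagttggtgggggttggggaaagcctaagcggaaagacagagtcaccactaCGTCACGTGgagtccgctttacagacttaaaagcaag
Ptges: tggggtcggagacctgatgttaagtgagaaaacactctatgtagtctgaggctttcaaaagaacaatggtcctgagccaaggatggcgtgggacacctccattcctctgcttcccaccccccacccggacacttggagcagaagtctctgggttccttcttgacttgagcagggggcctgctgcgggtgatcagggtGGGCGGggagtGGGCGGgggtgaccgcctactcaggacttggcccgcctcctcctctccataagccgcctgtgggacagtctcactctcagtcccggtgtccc
Hpgd: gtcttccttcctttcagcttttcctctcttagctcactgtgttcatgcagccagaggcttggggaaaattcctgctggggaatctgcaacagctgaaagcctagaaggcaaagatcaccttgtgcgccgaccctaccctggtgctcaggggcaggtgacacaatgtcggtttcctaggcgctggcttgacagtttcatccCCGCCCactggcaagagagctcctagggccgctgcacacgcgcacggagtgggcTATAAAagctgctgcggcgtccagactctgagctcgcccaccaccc
In Ptgs2 the response element core, on the minus strand, and the E-box overlapped from 13 to 21 bases after the annotated start, and a GC box lay upstream. The core was present in 20.8% and the E-box in 7.15% of 32851 windows of this length. Ptges held 2 GC boxes, and Hpgd held 1 GC box and 1 TATA box, motifs found in 35.7% and 13.6% of all windows. The TATA box match in Hpgd lay from 4 to 9 bases after the annotated start, not upstream of it. The first bases after that start were not found in the GENCODE transcript paired with Hpgd. The full response element (TGACGTCA), the AP-1 motif (TGANTCA) and the kappaB consensus had no match in the 9 windows, against 1.79%, 7.81% and 4.51% of all windows. The CCAAT box (CCAAT), in 37.4% of all windows, had no match in the 3 windows shown. No match says only that these letters are not in these stretches.

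The libraries held 33165903 to 41389957 expected counts, and 15802 genes were tested. Library numbers in the labels run from 6 to 11 for vehicle and cover 1 to 5 and 12 for THC, so library number and treatment cannot be told apart. The mutant vehicle libraries hold the consecutive numbers 8, 9 and 10, and the control vehicle libraries hold 6, 7 and 11. The 8 hippocampal markers summed to 493 to 973 CPM (counts per 1000000, TMM-scaled) over the 12 libraries. The 10 choroid plexus markers summed to 3195 to 10965 CPM in mutant THC 1 and 3, all 3 mutant vehicle libraries and control THC 2, and to 58.6 to 132 CPM in the other 6. The 8 striatal markers summed to 4434 CPM in mutant THC 3 and 562 CPM in mutant vehicle 3, against 164 to 193 CPM in the other 10. No marker of these lists was at 0 in any library.

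None of the 10 genes passed the threshold (edgeR quasi-likelihood test, Benjamini-Hochberg adjusted p of 0.05 over all genes tested) in any of 8 comparisons. These were THC in mutants, THC in controls, the mutation under vehicle, the mutation under THC, their interaction, the averaged THC and mutation effects, and mutant THC against control vehicle. Below that threshold, Ptges and Hpgd were both higher in every mutant vehicle library than in the 9 others. Ptges encodes the inducible synthase functionally coupled to COX-2, and the product of Hpgd degrades PGE2. The share of all genes with this pattern over 4 groups was not counted. Between 2 groups, 15.3% of all genes had every mutant vehicle library above every control vehicle library. Every mutant THC library lay below every mutant vehicle library in 4.4% of all genes. Ptgs2 spread widely within groups, and its groups overlapped in every comparison of 2 groups. Receptor transcripts were scarce, and Ptges3 was the most abundant of the 10.

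Per length, the level of Ptges3, which encodes cytosolic PGE synthase (the Hsp90 co-chaperone p23), was 88.5 ± 6.30 CPM per kb (SD over 12 libraries). Ptgs2 was at 6.77 ± 1.5, Ptges2 at 6.60 ± 0.488, Ptgs1 at 5.33 ± 0.376 and Hpgd at 4.41 ± 0.801 CPM per kb, and the ranges of these 4 overlapped. Ptges, at 1.1 ± 0.226 CPM per kb, lay below all 5 in every library. The receptor genes came last, with Ptger3 at 0.426 ± 0.141, Ptger4 at 0.339 ± 0.0568, Ptger2 at 0.123 ± 0.0378 and Ptger1 at 0.0720 ± 0.0282 CPM per kb. Ptger3 overlapped Ptger4 in range, and Ptger2 overlapped Ptger1. The lengths are those of the GENCODE transcripts paired with each row, so the order is approximate.

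**Figure D1:**
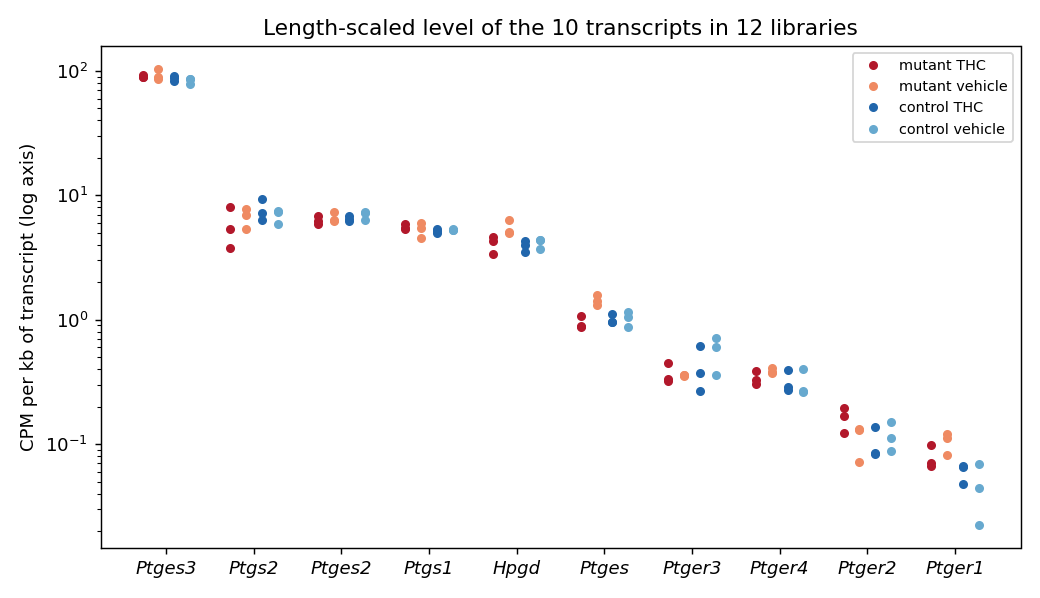
Level of each gene in CPM per kb of transcript (log axis), 1 point per library, coloured by group. Ptges3 stands at 78.2 to 104 CPM per kb, and all 4 receptor genes lie at or below 0.719 CPM per kb.

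Ptgs2, on chromosome 1 from 150100031 to 150108234 with 10 exons (GRCm38.p6), had 24.0, 36.1 and 17.0 CPM in mutant THC 1 to 3 and 34.9, 23.7 and 31.0 CPM in mutant vehicle 1 to 3. It had 28.4, 32.3 and 42.0 CPM in control THC 1 to 3 and 26.4, 33.4 and 32.8 CPM in control vehicle 1 to 3. The highest and the lowest library, control THC 3 and mutant THC 3, were both THC libraries, and mutant THC 2 was the next highest. The log2 fold change of mutant THC over mutant vehicle was -0.22 ± 0.25 (SE, 95% interval -0.78 to 0.34, adjusted p = 0.89 by edgeR). In control mice the THC effect was 0.15 ± 0.25 (-0.41 to 0.71, adjusted p = 0.93 by edgeR). These intervals hold both higher and lower values.

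Mutant vehicle over control vehicle gave -0.05 ± 0.25 for Ptgs2 (-0.61 to 0.51), and mutant THC over control THC gave -0.42 ± 0.25 (-0.98 to 0.15). The interaction was -0.37 ± 0.36 (-1.16 to 0.42), and mutant THC over control vehicle was -0.27 ± 0.25 (-0.83 to 0.30). Single libraries moved these values. The THC effect in mutants was 0.01 without mutant THC 3 and -0.55 without mutant THC 2, and the interaction was -0.14 and -0.70 in the same fits. Without control THC 3 the THC effect in controls was -0.02. With a score of choroid plexus markers as covariate, the mutation effect under vehicle was 0.39.

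**Figure D2:**
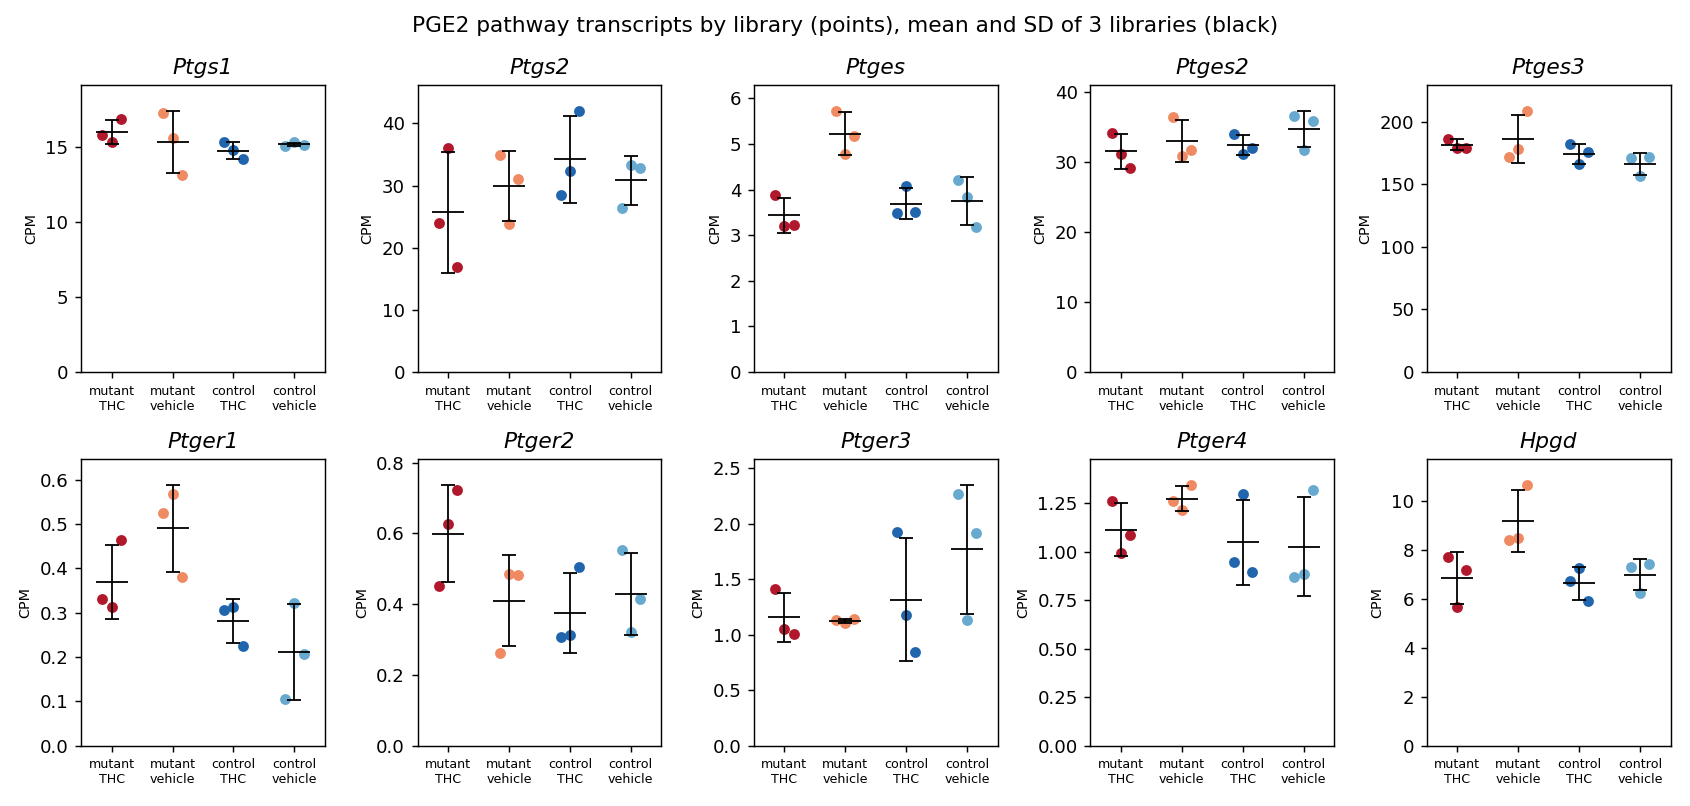
CPM of the 10 genes in each library (points) with the mean and SD of 3 libraries (black), by group. Ptges and Hpgd are highest in mutant vehicle, at 4.78 to 5.72 and 8.40 to 10.7 CPM, while Ptgs2 spans 17.0 to 42.0 CPM with overlapping groups.

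The profile of Ptgs2 over the 12 libraries was compared with those of 14057 other genes by the root mean square difference of log2 CPM, each profile scaled to mean 0 and SD 1. The 3 nearest genes were Trhde, which encodes the enzyme that degrades thyrotropin-releasing hormone, at 0.17 SD, Zfpm2, a GATA cofactor gene, at 0.31 SD, and Nectin3, a cell adhesion gene, at 0.31 SD. The median gene was at 1.36 SD. Trhde had 60.6, 78.6 and 39.4 CPM in mutant THC 1 to 3, 75.7, 58.3 and 70.6 in mutant vehicle 1 to 3, 67.2, 72.3 and 91.4 in control THC 1 to 3, and 64.8, 76.2 and 73.0 in control vehicle 1 to 3. Like Ptgs2, it was highest in control THC 3 and lowest in mutant THC 3.

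The dentate granule cell markers Prox1, a fate-determining transcription factor gene, C1ql2, a synaptic organiser gene, and Dsp, the desmoplakin gene, were 0.40, 0.48 and 0.56 SD from Ptgs2. The CA1 markers Wfs1 and Fibcd1 were at 1.19 and 1.22 SD, and Spink8, also a CA1 marker, was nearer at 0.93 SD. The other two of the 8 hippocampal markers, Neurod6 and Zbtb20, transcription factor genes, were at 0.64 and 0.43 SD. C1ql2 had 56.3, 117 and 45.0 CPM in mutant THC 1 to 3, 89.4, 71.4 and 63.2 in mutant vehicle 1 to 3, 87.2, 97.2 and 138 in control THC 1 to 3, and 76.9, 85.8 and 74.8 in control vehicle 1 to 3. It too was highest in control THC 3, next highest in mutant THC 2 and lowest in mutant THC 3. The 8 hippocampal markers summed to 493 to 918 CPM in mutant THC, 642 to 770 in mutant vehicle, 820 to 973 in control THC and 754 to 828 in control vehicle. Their part in the spread of Ptgs2 was not tested, and in bulk tissue fewer cells of a type and less RNA per cell cannot be told apart.

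Of 14 activity-induced genes, 11 were farther from Ptgs2 than the median gene. Fos, Npas4, Arc and Egr1, immediate early genes of neuronal activity, were at 1.43, 1.42, 1.52 and 1.67 SD, while Bdnf, a neurotrophin gene, was at 0.60 SD. In mutant THC 3, the library lowest in Ptgs2, Egr1 was at 56.7 CPM, against 23.6 to 45.8 CPM in the other 11. That library also held the most striatal marker RNA, at 4434 CPM, and the part of striatal RNA in either value was not tested. Fos had 18.3, 14.5 and 13.2 CPM in mutant THC 1 to 3, 16.5, 23.0 and 14.2 in mutant vehicle 1 to 3, 15.9, 14.9 and 12.6 in control THC 1 to 3, and 21.4, 20.5 and 23.6 in control vehicle 1 to 3. All 3 control THC libraries were lower in Fos than all 3 control vehicle libraries, with a log2 fold change of -0.60 ± 0.18 that did not pass the threshold (adjusted p = 0.70 by edgeR). Npas4 gave -0.69 ± 0.20 and Arc -0.32 ± 0.13 in the same comparison, and neither passed (adjusted p = 0.70 and 0.70 by edgeR). There 4 of 14 were lower at an unadjusted p under 0.05 and 0 higher, beside 3.45% lower and 3.55% higher of all genes, with a median of -0.17 beside 0.00 over all genes. None of the 14 passed the threshold in any of the 8 comparisons.

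**Figure D3:**
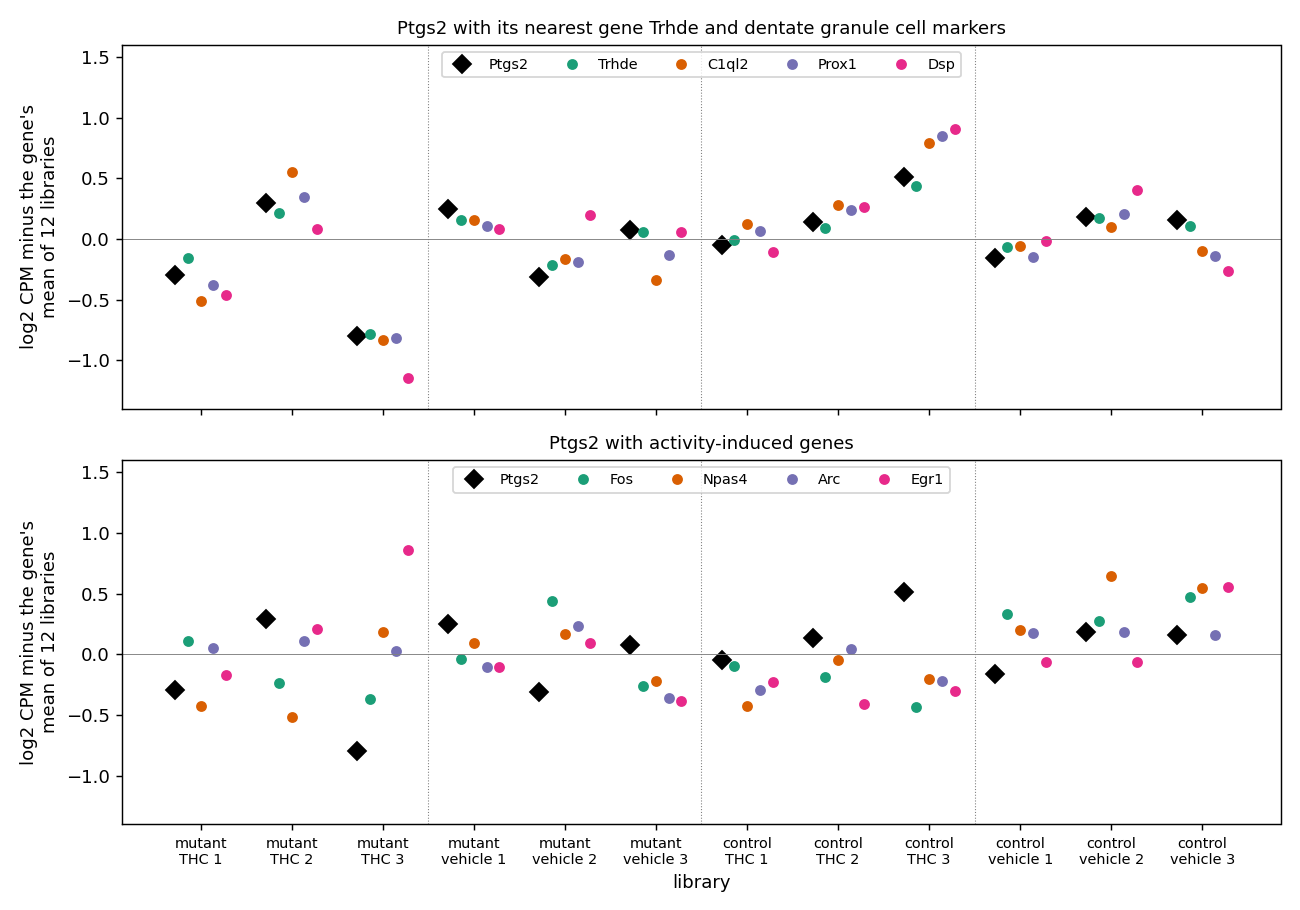
Log2 CPM of each gene minus its own mean over the 12 libraries, by library and group, for Ptgs2 with Trhde and dentate granule cell markers (top) and with activity-induced genes (bottom). Trhde and the dentate markers are low with Ptgs2 in mutant THC 3 and high with it in control THC 3, while Egr1 is highest in mutant THC 3.

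Ptgs1, on chromosome 2 from 36216742 to 36258593 with 11 exons, encodes COX-1, which in mouse brain is found mainly in microglia. It had 15.7, 15.3 and 16.9 CPM in mutant THC 1 to 3, 17.2, 15.6 and 13.1 in mutant vehicle 1 to 3, 15.3, 14.7 and 14.2 in control THC 1 to 3, and 15.1, 15.3 and 15.1 in control vehicle 1 to 3. All 3 mutant THC libraries lay above all 3 control THC libraries (log2 fold change 0.12 ± 0.09, adjusted p = 0.66 by edgeR) and above all 3 control vehicle libraries (0.08 ± 0.09, adjusted p = 0.70). Mutant THC 2 was less than 0.1 CPM above control THC 1 and control vehicle 2. The 7 microglial markers summed to 328 to 344 CPM in mutant THC, 327 to 351 in mutant vehicle, 297 to 328 in control THC and 293 to 356 in control vehicle, and their part was not tested. The genes nearest to Ptgs1 in profile were Pgm1, Itfg2 and Urm1, at 0.52 to 0.55 SD. Per length, Ptgs2 was 39.3 to 60.3% of both cyclooxygenase transcripts in mutant THC, 49.5 to 60.3% in mutant vehicle, 54.5 to 65.6% in control THC and 53.0 to 58.4% in control vehicle. The lowest share was in mutant THC 3, the library with the most striatal marker RNA.

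Ptges, on chromosome 2 from 30889471 to 30931020 with 3 exons, encodes the inducible microsomal PGE synthase. It had 3.87, 3.21 and 3.23 CPM in mutant THC 1 to 3 and 5.72, 4.78 and 5.17 CPM in mutant vehicle 1 to 3. It had 3.48, 4.08 and 3.5 CPM in control THC 1 to 3 and 4.21, 3.84 and 3.18 CPM in control vehicle 1 to 3. Every mutant vehicle library lay above the 9 others, whose groups overlapped. These levels rest on 113 to 218 counts per library. Mutant THC over mutant vehicle was -0.60 ± 0.14 on the log2 scale (95% interval -0.91 to -0.29, unadjusted p = 0.0013, adjusted p = 0.81 by edgeR), and its p ranked 16 of 15802. Mutant vehicle over control vehicle was 0.48 ± 0.14 (0.17 to 0.79, unadjusted p = 0.0056, adjusted p = 0.16 by edgeR). Both comparisons use the mutant vehicle libraries. THC in controls gave -0.02 ± 0.14 and the mutation under THC -0.10 ± 0.14. The interaction was -0.58 ± 0.20 (-1.02 to -0.15, unadjusted p = 0.014, adjusted p = 0.69 by edgeR). As a share of the 3 synthases per length, Ptges was 0.960% ± 0.0782 in mutant THC, 1.43% ± 0.202 in mutant vehicle, 1.07% ± 0.145 in control THC and 1.13% ± 0.173 in control vehicle (SD, n = 3).

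Hpgd, on chromosome 8 from 56294552 to 56321046 with 7 exons, encodes the enzyme that starts the breakdown of PGE2. It had 7.72, 5.68 and 7.20 CPM in mutant THC 1 to 3 and 8.40, 8.51 and 10.7 CPM in mutant vehicle 1 to 3. It had 6.74, 7.28 and 5.91 CPM in control THC 1 to 3 and 7.32, 6.26 and 7.42 CPM in control vehicle 1 to 3. As for Ptges, all 3 mutant vehicle libraries lay above the 9 others, and the share of all genes with this pattern was not counted. Mutant THC over mutant vehicle was -0.42 ± 0.14 (-0.74 to -0.11, unadjusted p = 0.013, adjusted p = 0.81 by edgeR). Mutant vehicle over control vehicle was 0.39 ± 0.14 (0.08 to 0.71, unadjusted p = 0.019, adjusted p = 0.20 by edgeR). THC in controls gave -0.07 ± 0.14, and the interaction was -0.35 ± 0.20 (-0.79 to 0.10).

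Levels of markers of other tissue also differed among the libraries. The 10 choroid plexus markers summed to 84.0 to 6795 CPM in mutant THC, 3961 to 10965 in mutant vehicle, 93.0 to 5711 in control THC and 58.6 to 132 in control vehicle. All 10 were higher in mutant vehicle than in control vehicle at an unadjusted p under 0.05, beside 11.2% of all genes, and 0 passed the adjusted threshold. The 9 markers of meninges and mural cells summed to 143 to 275 CPM in mutant THC, 271 to 321 in mutant vehicle, 209 to 234 in control THC and 147 to 169 in control vehicle. In mutant against control vehicle, 3 of 9 were higher and 0 lower at an unadjusted p under 0.05. All genes gave 11.2% higher and 6.63% lower. Igf2 was at 73.7 to 111 CPM in mutant vehicle and 22.6 to 27.7 CPM in control vehicle. The mural marker Pdgfrb was at 27.4 to 30.8 CPM and 26.7 to 32.9 CPM in the same groups. The 6 blood cell markers summed to 495 to 632 CPM in mutant THC, 434 to 763 in mutant vehicle, 361 to 554 in control THC and 294 to 421 in control vehicle. Here 4 of 6 were higher and 0 lower in mutant than in control vehicle at an unadjusted p under 0.05. In mutant THC 1 and 3 and control THC 2, the other libraries with high choroid plexus markers, Ptges was at 3.87, 3.23 and 4.08 CPM and Hpgd at 7.72, 7.20 and 7.28 CPM. These lay below every mutant vehicle library. With a choroid plexus score as covariate, Ptges gave -0.55 for THC in mutants, 0.32 for the mutation under vehicle and -0.47 for the interaction. Hpgd gave -0.29, 0.04 and -0.10 in that fit. Every mutant vehicle library and no control vehicle library had high markers, so under vehicle the genotype and choroid plexus content cannot be told apart.

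**Figure D4:**
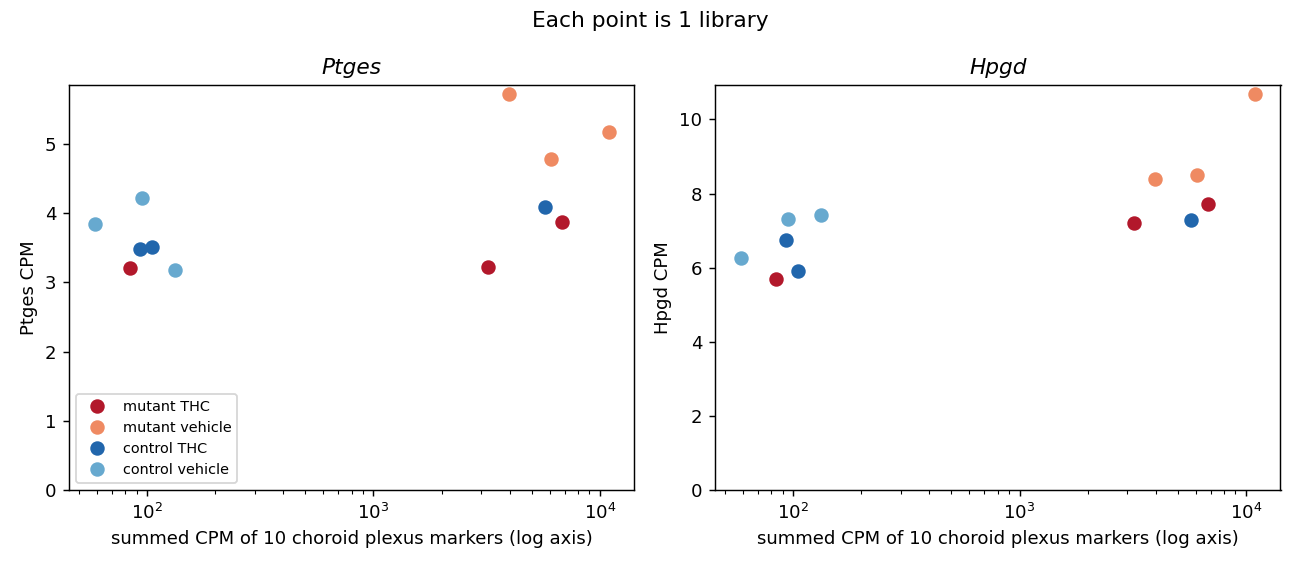
CPM of Ptges and Hpgd against the summed CPM of 10 choroid plexus markers (log axis), 1 point per library, coloured by group. The mutant vehicle libraries (3961 to 10965 CPM of markers) lie above the other 3 libraries with high markers in both genes. Within mutant THC and within control THC, libraries with high markers lie above those with low markers in both genes. For Ptges in mutant THC this rests on 3.23 against 3.21 CPM.

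The genes nearest to Ptges in profile were Plcb3, a phospholipase C gene, at 0.35 SD, Nudt22 at 0.40 SD and Hsd3b7, a gene of bile acid synthesis, at 0.40 SD. Those nearest to Hpgd were Adora2b, the adenosine A2B receptor gene, at 0.29 SD, Nudt14 at 0.30 SD and Fam114a1 at 0.30 SD.

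Ptges2, on chromosome 2 from 32395890 to 32402740, encodes a further membrane-associated PGE synthase and was at 29.1 to 34.2 CPM in mutant THC, 30.8 to 36.4 in mutant vehicle, 31.1 to 33.9 in control THC and 31.7 to 36.5 in control vehicle. Its groups overlapped, and its 8 log2 fold changes lay between -0.14 and 0.03. Ptges3, on chromosome 10 from 128058982 to 128077254, was at 179 to 186 CPM in mutant THC, 172 to 208 in mutant vehicle, 166 to 182 in control THC and 156 to 171 in control vehicle. Its mutant vehicle libraries lay above those of control vehicle, by 0.16 ± 0.07 (unadjusted p = 0.051, adjusted p = 0.28 by edgeR), although mutant vehicle 1 was less than 1 CPM above the highest control vehicle library. Mutant THC was also above control vehicle, by 0.13 ± 0.07 (adjusted p = 0.44 by edgeR).

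Ptger1, on chromosome 8 from 83666644 to 83672756, encodes EP1, which signals through calcium. It had 11, 11 and 18 counts in mutant THC 1 to 3, 20, 21 and 15 in mutant vehicle 1 to 3, 11, 13 and 8 in control THC 1 to 3, and 4, 12 and 8 in control vehicle 1 to 3. All mutant vehicle libraries were above all control vehicle libraries, by 1.2 ± 0.37 (0.39 to 2.02, unadjusted p = 0.0078, adjusted p = 0.17 by edgeR). Without control vehicle 1, which had 4 counts, this was 0.89. Under THC the mutation effect was 0.39 ± 0.37, and the groups were apart only by 0.313 CPM in mutant THC 2 against 0.312 CPM in control THC 2. The sources used here do not say if counting used strand, so Ptger1 counts, like those of Ptgs1 and Ptger2, may hold reads from the other strand.

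Ptger2 and Ptger4 encode EP2 and EP4, which raise cyclic AMP. Ptger2, on chromosome 14 from 44988111 to 45003820, had 15, 22 and 28 counts in mutant THC 1 to 3, 10, 18 and 19 in mutant vehicle 1 to 3, 11, 13 and 18 in control THC 1 to 3, and 21, 12 and 16 in control vehicle 1 to 3. It gave 0.55 ± 0.34 for THC in mutants and 0.68 ± 0.34 for the mutation under THC (adjusted p = 0.81 and 0.55 by edgeR), with overlapping groups in both. Ptger4, on chromosome 15 from 5233399 to 5244187, was at 0.995 to 1.26 CPM in mutant THC, 1.22 to 1.34 in mutant vehicle, 0.897 to 1.30 in control THC and 0.869 to 1.32 in control vehicle, and its groups overlapped in every comparison of 2 groups. Ptger3, on chromosome 3 from 157566821 to 157644758, encodes EP3, which lowers cyclic AMP. It had 47, 37 and 39 counts in mutant THC 1 to 3, 43, 41 and 45 in mutant vehicle 1 to 3, 69, 49 and 30 in control THC 1 to 3, and 86, 42 and 74 in control vehicle 1 to 3. Both control groups ranged widely, and the mutation effect under vehicle was -0.65 ± 0.32 (adjusted p = 0.31 by edgeR). Per length, Ptger3 was 38.6% ± 4.96 of the 4 receptor transcripts in mutant THC, 37.3% ± 1.37 in mutant vehicle, 45.3% ± 11.4 in control THC and 53.4% ± 8.32 in control vehicle (SD, n = 3).

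Read against all genes, THC in mutants had 0 of 10 past the adjusted threshold, beside 0% of all genes. At an unadjusted p under 0.05 it had 2 of 10, Ptges and Hpgd, both lower, beside 5.73% of all genes (2.53% higher and 3.2% lower). The same 2 had groups apart, with every library of one group beyond every library of the other, beside 8.47% of all genes (4.07% higher and 4.4% lower). THC in controls had 0 of 10 past either threshold, beside 0% adjusted and 7% unadjusted (3.55% higher and 3.45% lower), and 0 of 10 with groups apart, beside 16.4% (8.3% higher and 8.07% lower). The median log2 fold change of the 10 was -0.13 in mutants and -0.03 in controls, beside -0.01 and 0.00 over all genes.

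The mutation under vehicle had 0 of 10 past the adjusted threshold, beside 0.00633% of all genes. At an unadjusted p under 0.05, Ptges, Ptger1 and Hpgd were higher and 0 of 10 lower, beside 17.8% of all genes (11.2% higher and 6.63% lower). With Ptges3, 4 of 10 had groups apart, all higher, beside 28% of all genes (15.3% higher and 12.7% lower). The mutation under THC had 0 of 10 past either threshold, beside 0.00633% adjusted and 8.98% unadjusted (4.71% higher and 4.27% lower). Ptgs1 and Ptger1 had groups apart there, both higher, beside 10.5% (4.83% higher and 5.7% lower). Mutant THC against control vehicle had 0 of 10 past either threshold, beside 0.00633% adjusted and 14.1% unadjusted (7.13% higher and 7% lower). Ptgs1 and Ptges3 had groups apart there, both higher, beside 17.5% (8.59% higher and 8.94% lower). The medians of the 10 were 0.09 under vehicle, 0.05 under THC and 0.02 for mutant THC against control vehicle, beside -0.01, 0.01 and 0.01 over all genes.

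The interaction had 0 of 10 past the adjusted threshold, beside 0%, and 1 of 10 (Ptges, lower) at the unadjusted one, beside 6.59% (2.16% higher and 4.42% lower). THC averaged over genotypes had 0 of 10 past the adjusted threshold, beside 0%, and 2 of 10 lower at the unadjusted one, beside 6.05% (2.96% higher and 3.09% lower). These were Ptges at -0.31 ± 0.10 and Hpgd at -0.25 ± 0.10 (adjusted p = 0.79 each by edgeR). The mutation averaged over treatments had 0 of 10 past the adjusted threshold, beside 0.00633%, and 1 of 10 (Ptger1, higher, 0.80 ± 0.26) at the unadjusted one, beside 21.2% (12.2% higher and 9.01% lower). DESeq2 and limma-voom also called 0 of the 10 at the adjusted threshold in each of the 8 comparisons. Their unadjusted counts were the same as those of edgeR, except that limma-voom counted 1 for mutant THC against control vehicle.

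**Figure D5:**
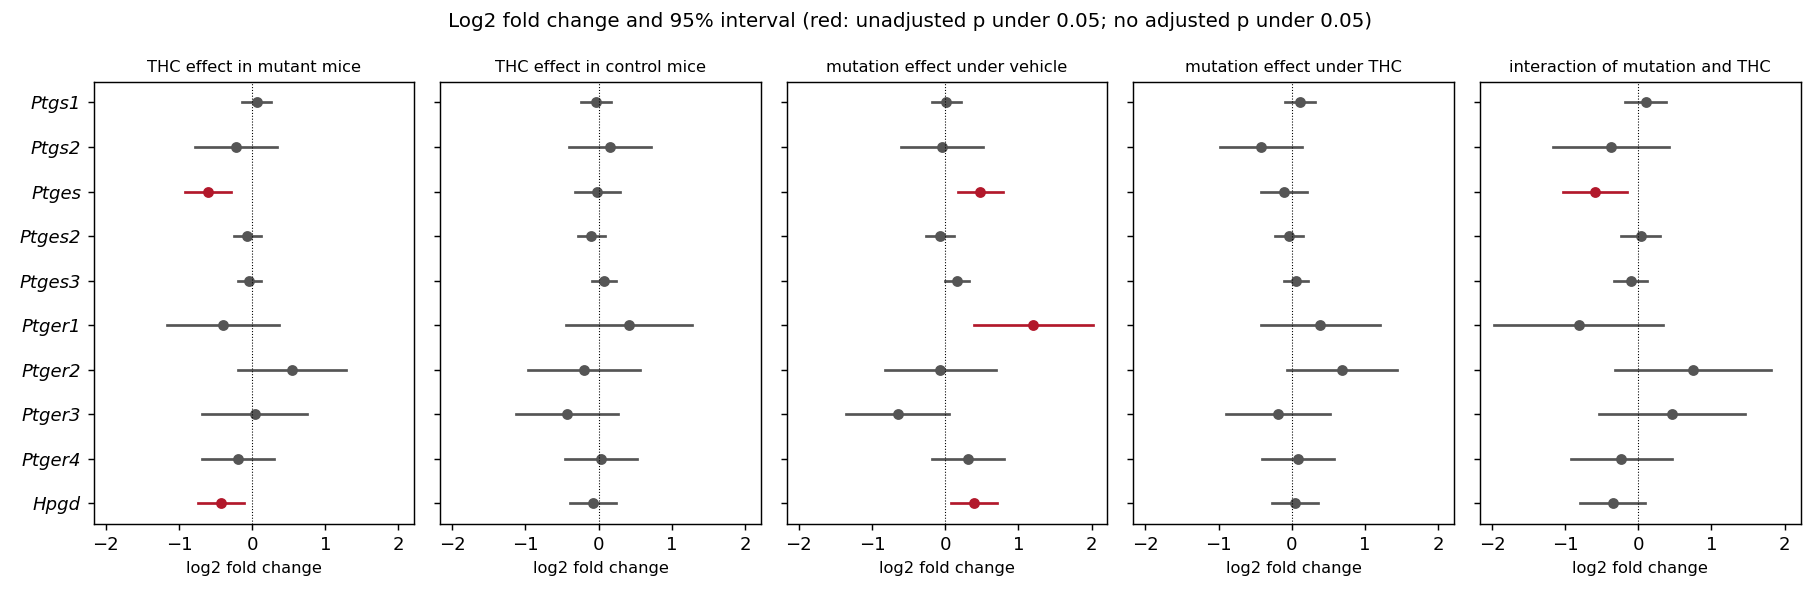
Fitted log2 fold change (points) and 95% interval (bars) of the 10 genes by comparison, with an unadjusted p under 0.05 marked by colour. Ptges is at -0.60 for THC in mutants and 0.48 for the mutation under vehicle, and no gene passed the adjusted threshold.

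A list of 16 genes covered release of arachidonic acid, its return to phospholipids, and endocannabinoid synthesis and breakdown. Of these, 0 passed the threshold in any of the 8 comparisons. For the mutation under vehicle 3 were higher and 1 lower at an unadjusted p under 0.05, beside 11.2% higher and 6.63% lower of all genes. Pla2g5, a secreted phospholipase A2 gene, had 8.41, 0.625 and 5.37 CPM in mutant THC 1 to 3, 4.59, 9.35 and 14.4 in mutant vehicle 1 to 3, 1, 6.22 and 0.701 in control THC 1 to 3, and 0.737, 0.403 and 0.517 in control vehicle 1 to 3. It was high in the 6 libraries with high choroid plexus markers, and mutant vehicle over control vehicle was 4.09 ± 1.06 (adjusted p = 0.16 by edgeR). Pla2g12a, also a secreted phospholipase A2 gene, gave 0.22 ± 0.06 and Pla2g4a, the cytosolic phospholipase A2 gene, 0.57 ± 0.18 (adjusted p = 0.16 and 0.17 by edgeR). Mgll, which encodes monoacylglycerol lipase, was at 187 to 243 CPM in mutant THC, 193 to 237 in mutant vehicle, 208 to 248 in control THC and 211 to 237 in control vehicle. Abhd6, which hydrolyses the same substrate, gave -0.24 ± 0.11 for THC in mutants and -0.24 ± 0.11 for THC in controls (adjusted p = 0.81 and 0.70 by edgeR).

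Of 8 other prostanoid synthase genes, 0 passed the threshold in any of the 8 comparisons, and 3 were lower at an unadjusted p under 0.05 for THC in mutants, beside 3.2% of all genes. These were Ptgds, the prostaglandin D synthase gene of meninges and choroid plexus, at -1.05 ± 0.44, Akr1b3, an aldose reductase gene, at -0.42 ± 0.18, and Ptgis, the prostacyclin synthase gene, at -0.77 ± 0.35 (adjusted p = 0.81 each by edgeR). Ptgds had 531, 322 and 201 CPM in mutant THC 1 to 3, 1176, 491 and 522 in mutant vehicle 1 to 3, 918, 431 and 571 in control THC 1 to 3, and 480, 361 and 349 in control vehicle 1 to 3. Its mutant vehicle libraries lay above its control vehicle libraries (0.88 ± 0.43, adjusted p = 0.32 by edgeR), and its groups overlapped in the other comparisons of 2 groups. Akr1b3 was at 14.4 to 17.7 CPM in mutant THC and 25.8 to 28.3 CPM in control vehicle, with groups apart (-0.75 ± 0.18, adjusted p = 0.30 by edgeR). Of 6 transport and reductase genes 0 passed in any of the 8 comparisons, and 3 were higher at an unadjusted p under 0.05 for the mutation under vehicle, beside 11.2% of all genes. Abcc4, which encodes a prostanoid exporter, was at 18.5 to 25.8 CPM in mutant vehicle and 11.7 to 15.2 CPM in control vehicle (0.78 ± 0.22, adjusted p = 0.16 by edgeR). Ptgr1 and Ptgr2, prostaglandin reductase genes, gave 0.57 ± 0.24 and 0.22 ± 0.06 (adjusted p = 0.25 and 0.16 by edgeR). Abcc4 was at 16.9 to 25.8 CPM in the 6 libraries with high choroid plexus markers and 11.7 to 16.3 CPM in the other 6. Ptgr2 was at 70.7 to 79.8 and 62.4 to 70.6 CPM in the same sets, while Ptgr1 overlapped between them. Under vehicle the genotype and choroid plexus content cannot be told apart.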

How the data were processed

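RNA-seq of ribosome-depleted hippocampal total RNA, read as paired ends per the labels' protocols, was analysed in 12 libraries. The authors deposited 1 table of RSEM expected counts per gene on RefSeq transcripts of mm10, per the file headers, with no scaling for depth or length. The submitters' processing notes name Bowtie2 2.2.2, RSEM 1.2.21 and edgeR 3.10.2. All 12 columns matched a sample. Between 27.2% and 29.4% of values per library were not whole (tolerance 1e-09). RefSeq (GRCm38.p6) gave symbols for 23018 rows and GENCODE for 129 more, and 0.727% of counts fell in the 235 unnamed rows.

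Expected counts were rounded, filtered with filterByExpr (15802 genes, all 10 members kept), scaled by TMM (factors 0.989 to 1.01) and tested with edgeR 4.0.16 in R 4.3.3 (robust quasi-likelihood F test) in 1 model of 4 group means, with Benjamini-Hochberg adjustment over all genes. SEs and 95% intervals came from the F statistic. The labels do not say if a group's 3 libraries come from separate mice, so the spread behind each p may be technical. The lowest chi-square per gene over 66 library pairs was 10.8, so no pair agreed within counting noise, which does not show that the libraries come from separate mice. Alternatives were RLE factors, no filter, DESeq2 1.42.0, limma-voom 3.58.1, only the groups compared, a choroid plexus score as covariate, each library left out in turn and, chosen after seeing the data, both libraries with striatal markers left out. Members and lists were chosen with earlier results of these data known. All members are named, and of other lists up to 3 genes with the smallest p-values per comparison. Mgll, Bdnf, Egr1 and the marker genes set beside Ptgs2 were named, and the profile measure was applied to marker lists, after values were seen.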

Additional observations from a re-analysis of the deposited data

How the results depend on the processing

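None of the 10 genes passed the adjusted threshold under any alternative run. Of their 80 log2 fold changes, 1423 alternative values kept their direction and 67 changed sign, and the cause of these changes was not tested. With the choroid plexus score as covariate, the values of opposite sign were Ptger4 -0.13 for THC in controls, Ptgs2 0.39, Ptger2 0.054 and Ptger4 -0.12 for the mutation under vehicle, Ptger4 -0.025 and Hpgd -0.060 for the mutation under THC, Ptger4 0.093 for the interaction, Ptgs2 0.030, Ptger4 -0.071 and Hpgd -0.0097 for the mutation averaged and Ptger4 -0.15 for mutant THC against control vehicle. Without mutant THC 3 and mutant vehicle 3, chosen after seeing the data, the values of opposite sign were Ptgs1 -0.078, Ptgs2 0.038 and Ptges3 0.065 for THC in mutants, Ptges2 0.0091 for the mutation under THC, Ptgs1 -0.039 for the interaction and Ptgs1 -0.058, Ptgs2 0.095 and Ptger1 -0.17 for THC averaged. With no filter on low counts, the values of opposite sign were Ptgs1 -0.0070 for the mutation under vehicle. Leaving out each library in turn, the ranges of values that changed sign were Ptger3 -0.13 to 0.13, Ptgs2 -0.55 to 0.0079, Ptges2 -0.13 to 0.013, Ptgs1 -0.035 to 0.16 and Ptges3 -0.089 to 0.056 for THC in mutants. Ranges were Ptges -0.12 to 0.076, Ptger4 -0.15 to 0.26, Ptgs2 -0.024 to 0.26, Hpgd -0.15 to 0.0012 and Ptger2 -0.47 to 0.021 for THC in controls. Ranges were Ptgs1 -0.076 to 0.11, Ptger2 -0.23 to 0.17 and Ptgs2 -0.17 to 0.098 for the mutation under vehicle. Ranges were Ptger4 -0.012 to 0.27, Hpgd -0.042 to 0.17, Ptges2 -0.10 to 0.012 and Ptger3 -0.42 to 0.19 for the mutation under THC. Ranges were Ptges2 -0.027 to 0.11 for the interaction. Ranges were Ptgs1 -0.036 to 0.059, Ptgs2 -0.20 to 0.080, Ptger1 -0.15 to 0.22, Ptges3 -0.0087 to 0.064 and Ptger4 -0.17 to 0.033 for THC averaged. Ranges were Hpgd -0.11 to 0.094 for mutant THC against control vehicle. 

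Over all genes edgeR called 0 for THC in mutants, 0 for THC in controls, 1 for the mutation under vehicle, 1 for the mutation under THC, 0 for the interaction, 0 for THC averaged, 1 for the mutation averaged and 1 for mutant THC against control vehicle. DESeq2 called 3 for THC in mutants, 12 for THC in controls, 781 for the mutation under vehicle, 7 for the mutation under THC, 34 for the interaction, 3 for THC averaged, 785 for the mutation averaged and 158 for mutant THC against control vehicle. With only the groups compared, 523 genes passed for the mutation under vehicle and 0 for the mutation under THC and for mutant THC against control vehicle. For the mutation under vehicle and mutant THC against control vehicle 0 genes passed with limma-voom, with the choroid plexus covariate and without both striatal libraries, and for the mutation under THC 0 passed with limma-voom and without both striatal libraries. Leaving out each library in turn gave 0 to 3 for THC in mutants, 0 to 6 for the mutation under vehicle, 0 to 2 for the mutation under THC, 0 to 10 for the interaction, 1 to 942 for the mutation averaged and 0 to 1 for mutant THC against control vehicle, with 942 without mutant THC 2 and 10 without mutant THC 1. No paired analysis was possible because the labels give the groups no shared replicate numbers. Receptor genes rest on few counts: Ptger1 had 4 to 21 per library.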

Other observations

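Of 14 genes of adenylyl cyclases, protein kinase A and CREB, which act downstream of EP receptors, 0 passed the threshold in any of the 8 comparisons. For the mutation under vehicle 11 of 14 were below 0, with a median of -0.14 beside -0.01 over all genes. The share of all genes below 0 was not counted, and under vehicle the genotype and choroid plexus content cannot be told apart. At an unadjusted p under 0.05, 2 of the 14 were lower, beside 6.63% of all genes. These were Prkar1b, a protein kinase A regulatory subunit gene, at -0.25 ± 0.09 and Adcy8, a calcium-stimulated adenylyl cyclase gene, at -0.51 ± 0.23 (adjusted p = 0.20 and 0.28 by edgeR). Adcy5, the cyclase gene abundant in striatum, had 87.4, 92.9 and 682 CPM in mutant THC 1 to 3, 89.7, 96.7 and 133 in mutant vehicle 1 to 3, 87.7, 97.0 and 86.6 in control THC 1 to 3, and 91.3, 99.8 and 104 in control vehicle 1 to 3, highest in the library with the most striatal marker RNA.

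Of 5 genes for other prostanoid receptors, 3 had enough counts to be tested. Ptgfr, which encodes the PGF2alpha receptor, was at 0.852 to 1.65 CPM in mutant THC, 1.27 to 3.65 in mutant vehicle, 1.06 to 4.01 in control THC and 1.02 to 1.37 in control vehicle. Its interaction was -1.92 ± 0.70 (adjusted p = 0.71 by edgeR), and Ptgdr, a PGD2 receptor gene, gave -1.49 ± 0.62 (adjusted p = 0.73 by edgeR). The 3 tested genes were all below 0 there, and 2 were lower at an unadjusted p under 0.05, beside 4.42% of all genes. Ptgfr was highest in control THC 1 at 4.01 CPM and mutant vehicle 1 at 3.65 CPM. Ptgds was also highest in these libraries, at 918 and 1176 CPM, and its tie to the Ptgfr value was not tested.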
